A study of Mus musculus with 3 samples.

Results

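Dividing luminal progenitor cells of the adult mouse mammary gland were taken from droplet single-cell RNA-seq of sorted mammary epithelial cells. A cell was kept with at least 500 detected genes and under 10% of its unique molecular identifiers (UMIs, 1 per captured transcript) from mitochondrial genes. It was called a luminal progenitor cell when Csn3, Elf5, Kit and Aldh1a3 together had at least 5 UMIs, and at least 3 times the UMIs of Krt5, Krt14, Krt17 and Acta2 (basal genes) and of Prlr, Areg, Pgr, Esr1 and Cited1 (genes of hormone-responsive cells). It was called dividing when it also held at least 1 UMI of Top2a or Mki67. The rule gave 518 dividing cells among 8081 luminal progenitor cells and 26320 kept cells. The other 7563 luminal progenitor cells of the same 3 libraries were the comparison.

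The series holds 3 libraries of 1 untreated group of female FVB/NJ mice aged 10 weeks, with no second genotype, treatment or time point. Per the labels, number 4 glands of 4 mice were combined and taken apart with collagenase, then trypsin; the cells were sorted after staining with SytoxBlue and for CD31, CD45, Ter119, EpCAM and CD49f. The text is the same for each library, and nothing says that they came from separate animals, so p-values measure only how far these libraries vary, which may be a technical spread. The libraries held between 18584156 and 30984706 UMIs over all barcodes, and pairs of them shared between 77 and 146 cell barcodes.

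A dividing cell copies its DNA with an origin-bound helicase (the Mcm proteins), polymerases and enzymes that make deoxynucleotides. It then condenses its chromosomes, builds a spindle and splits under the control of cyclin-dependent kinase 1 (Cdk1), the Aurora and Polo kinases and the anaphase-promoting complex. Genes of the first step are known targets of E2F factors, and genes of the second are known targets of the MuvB, B-Myb and FoxM1 complexes, which act at a promoter element called the CHR. Luminal progenitors are the Kit-positive, Elf5-expressing cells of the ducts that give rise to milk-secreting alveoli. They already carry low amounts of milk transcripts in virgin glands.

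Promoters of 4 cell cycle genes are shown as examples of these elements in mitotic and replication genes. They were chosen after the values were seen. Each is the 250 bases before the RefSeq start in GRCm38.p6, 5′ to 3′ on the gene's strand, from the reference assembly and not from FVB/NJ. Capitals mark exact matches, on either strand, to the CHR letters TTTGAA or TTCGAA, to CCAAT, or to the E2F-like letters TTTCCCGC, TTTGGCGC, TTTCGCGC or TTTGCCGC; where matches overlap they form 1 run. Cdk1 (chr10:69352913-69353162, minus strand) and Ccnb2 (chr9:70421555-70421804, minus strand) held CHR letters and CCAAT, Cdk1 also E2F-like letters, Ccnb1 (chr13:100786487-100786736, minus strand) held CCAAT alone, and Mcm5 (chr8:75109259-75109508, plus strand) held E2F-like letters and CCAAT.
Cdk1: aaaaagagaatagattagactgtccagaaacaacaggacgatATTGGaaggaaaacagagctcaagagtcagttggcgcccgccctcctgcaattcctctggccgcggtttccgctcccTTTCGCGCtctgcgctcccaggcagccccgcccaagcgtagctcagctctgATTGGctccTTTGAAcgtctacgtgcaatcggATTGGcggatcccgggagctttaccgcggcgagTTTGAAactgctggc
Ccnb2: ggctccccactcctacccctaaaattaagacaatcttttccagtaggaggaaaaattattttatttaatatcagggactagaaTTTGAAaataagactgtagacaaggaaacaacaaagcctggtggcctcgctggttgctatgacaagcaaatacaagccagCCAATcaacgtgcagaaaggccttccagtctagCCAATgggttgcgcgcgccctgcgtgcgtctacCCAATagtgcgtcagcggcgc
Ccnb1: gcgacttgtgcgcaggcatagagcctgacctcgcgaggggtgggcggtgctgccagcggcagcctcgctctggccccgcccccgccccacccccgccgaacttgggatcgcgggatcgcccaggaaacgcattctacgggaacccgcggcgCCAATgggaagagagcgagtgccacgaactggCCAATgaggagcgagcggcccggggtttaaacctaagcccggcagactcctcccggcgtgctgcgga
Mcm5: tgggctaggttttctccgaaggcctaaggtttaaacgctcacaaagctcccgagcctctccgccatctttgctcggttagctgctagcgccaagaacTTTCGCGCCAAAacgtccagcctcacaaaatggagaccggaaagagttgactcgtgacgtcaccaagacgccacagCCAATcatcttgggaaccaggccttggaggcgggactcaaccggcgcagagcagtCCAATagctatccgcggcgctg

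Of all 32851 RefSeq promoters of that length, 17.1% held CHR letters, 33.8% CCAAT and 1.86% E2F-like letters. Among 69 promoters of the mitotic genes that rose in dividing cells (63 of 79 genes had an entry), the shares were 34.8%, 69.6% and 5.80%. Among 52 promoters of the replication genes that rose (43 of 53 genes had an entry), they were 17.3%, 57.7% and 17.3%. CHR letters were thus seen more often in the mitotic set and E2F-like letters more often in the replication set, as a description without a test. Among 12 promoters of the milk genes that fell, 16.7% held CHR letters, 58.3% CCAAT, close to the share in the replication set, and 0 held E2F-like letters. A match is not a measured binding site.

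Top2a, the topoisomerase that untangles replicated DNA (chr11:98992943-99024189, minus strand), and Mki67, the gene of the proliferation antigen Ki-67 (chr7:135689784-135716361, minus strand), chose the cells and are described only. Top2a summed to 374, 159 and 215 CPM (UMIs scaled to a common total of the summed cells) in the dividing cells of libraries 1, 2 and 3, and Mki67 to 182, 207 and 271 CPM. Both are 0 in the other cells by the rule. Of the 518 cells, 148 held Top2a alone, 247 held Mki67 alone and 123 held both. A single UMI admitted 306 cells, and 212 had at least 2.

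Whether the cells so chosen carried other genes of division was read from 77 measured mitosis genes that the rule did not use. Abundant tubulins and Stmn1 were left out of this count after their values were seen, since other cells also express them. Dividing cells held a median of 9.5, 10 and 9 mitosis genes in libraries 1, 2 and 3. Other cells held 1, 2 and 1. Other cells matched 1 to 1 on total UMIs held 2, 3 and 2. Cells with at least 2 UMIs of the pair held 20, 19.5 and 22.5, while cells with exactly 1 UMI held 2, 7 and 4. In library 1 the cells admitted by 1 UMI thus had the same median as the matched other cells. The matching was to all dividing cells, however, and these matched cells were deeper (median 5677 against 4077.5 UMIs). At least 3 mitosis genes were found in 422 of 518 dividing cells (81.5%), in 206 of 212 with at least 2 UMIs (97.2%), in 216 of 306 with 1 UMI (70.6%) and in 223 of 518 matched other cells (43.1%). With each cell thinned to 2000 UMIs the shares were 54.1%, 70.5% and 63.7% of dividing cells against 6.76%, 14.8% and 8.61% of matched cells in libraries 1, 2 and 3. Among cells admitted by 1 UMI the thinned shares were 26.3%, 58.7% and 45.5%. Mitosis genes were thus more frequent in the chosen cells than at matched depth, with much overlap among cells admitted by 1 UMI, of which library 1 had 40 of 76.

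**Figure D1:**
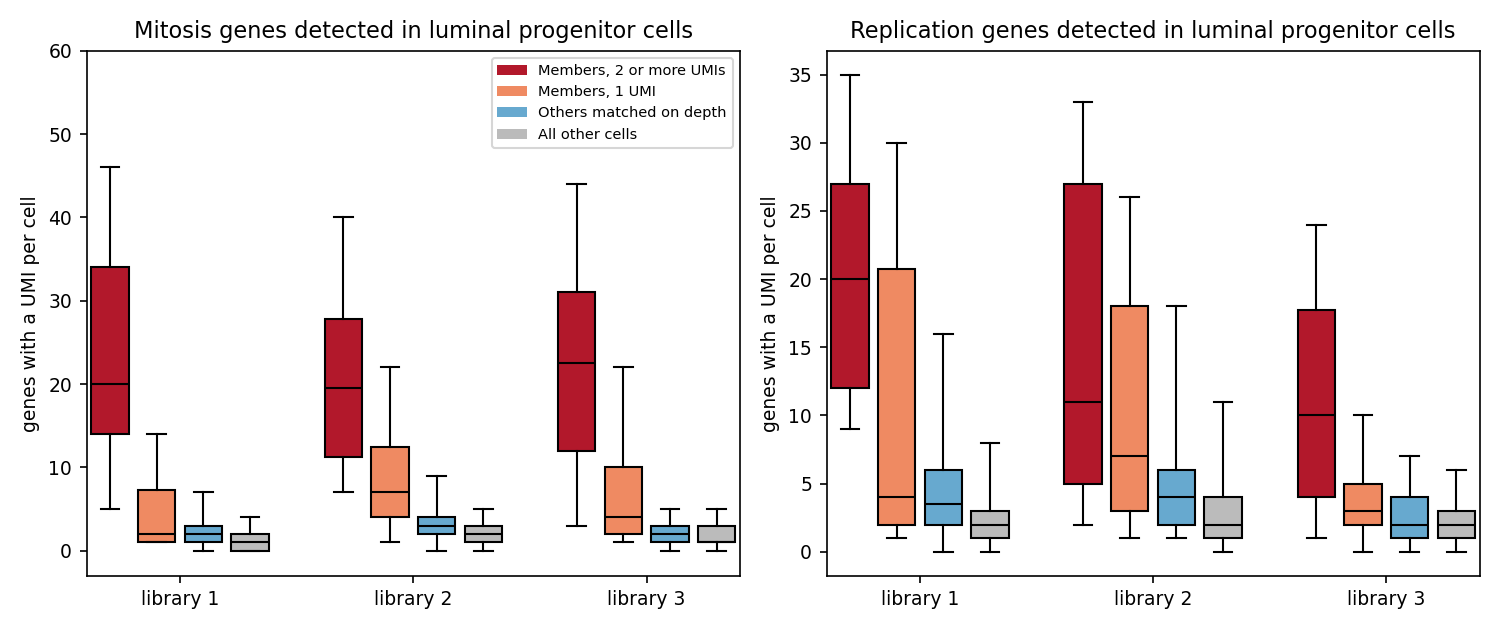
Number of mitosis genes (left) and replication genes (right) with at least 1 UMI per luminal progenitor cell, by library; boxes span the quartiles, the line is the median and whiskers reach the 5th and 95th percentiles. Cells with at least 2 UMIs of Top2a and Mki67 have median mitosis counts of 20, 19.5 and 22.5, and depth-matched other cells 2, 3 and 2.

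Replication genes were counted in the same way. Of 56 measured replication genes, a dividing cell held a median of 14.5, 9 and 4 in libraries 1, 2 and 3, against 3.5, 4 and 2 in matched other cells. Replication genes took a mean of 0.387%, 0.315% and 0.185% of a dividing cell's UMIs, and mitosis genes 0.355%, 0.372% and 0.462%. Library 1 was thus highest for replication genes and library 3 highest for mitosis genes. Cells with Top2a alone held a median of 13, 19 and 5 replication genes and cells with Mki67 alone 3, 5 and 3. Thinned to 2000 UMIs these became 5.5, 8 and 2 against 2, 3 and 2, so the order was seen in libraries 1 and 2 only. Cells with both were high in both sets, with 21, 25 and 10.5 replication genes and 25, 24 and 27.5 mitosis genes. Cells with Mki67 alone held 2, 8 and 6 mitosis genes, few of either set in library 1.

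Dividing cells made up 2.36% (95% exact binomial interval 1.86 to 2.94), 9.51% (8.12 to 11.1) and 8.89% (7.93 to 9.92) of luminal progenitor cells in libraries 1, 2 and 3. The mean was 6.92% ± 3.96 (SD, n = 3), and library 1 lay apart from the others beyond counting error, which is all that the intervals cover. Dividing cells were also deeper, with a median of 5670.5, 5552 and 4252 UMIs against 2835.5, 3595 and 3286.5 in other cells. Thinned to 2000 UMIs, with 1467 shallower cells left out, the shares were 1.66%, 6.54% and 6.08%. At a threshold of 2 UMIs they were 1.12%, 3.61% and 3.63%. No class in this sort is known to lack both genes. The same rule found 1.31%, 3.46% and 2.60% among basal cells (median depth 2037, 2203 and 1763 UMIs) and 2.37%, 2.78% and 3.57% among hormone-responsive cells (3330, 3811 and 3302.5 UMIs). Thinned to 2000 UMIs the hormone-responsive shares were 1.32%, 1.29% and 1.86%, and at 2 UMIs 0%, 0.384% and 0.499%, where 0 of 379 cells in library 1 has an upper 95% exact limit of 0.969%. The order of these classes in library 1 thus differed with the threshold and depth, and in libraries 2 and 3 the luminal progenitor share was the higher in each case. These differences were not tested.

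At the threshold of the class, 4, 7 and 7 dividing cells had a sum of exactly 5 UMIs of the luminal progenitor genes, with a median of 6.5, 8 and 3 mitosis genes. Just outside it, 1, 11 and 11 cells with Top2a or Mki67 had a sum of 4, with medians of 53, 7 and 2. A further 257 cells with Top2a or Mki67 fell into no class, of which 2, 53 and 38 met the luminal progenitor minimum and 2, 45 and 31 of these failed the ratio to basal genes. Among the dividing cells, 3, 2 and 6 were marked as likely doublets by Scrublet (3.95%, 1.31% and 2.08%, against 3.78%, 0.481% and 2.26% of other cells).

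The main question was which genes differ between dividing and other luminal progenitor cells of the same library. UMIs were summed per library and group, which gave 446274, 873276 and 1341076 UMIs for dividing cells and between 5501532 and 10648524 for other cells. Levels below are CPM with TMM scaling, in the order of libraries 1, 2 and 3. Fold changes are fitted log2 values, dividing over other, each with its SD over the ratios of the 3 libraries (n = 3), and adjusted p-values are from edgeR's quasi-likelihood test, two-sided, with the library as a block. Of 10824 genes tested, 1512 (14.0%) passed an adjusted p of 0.05, 893 higher (8.25%) and 619 lower (5.72%), with 1492 of them in the same direction in all 3 libraries. At 2-fold or more, 382 were higher (3.53%) and 120 lower (1.11%). Against depth-matched other cells, 5.96% of 8211 genes were higher and 4.42% lower. The higher share of the called genes was 59.1%, and 75.5% when total counts replaced TMM. The cells were split by transcripts of the same cells, so called division genes show what travels with Top2a and Mki67 and are no separate evidence of a state.

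**Figure D2:**
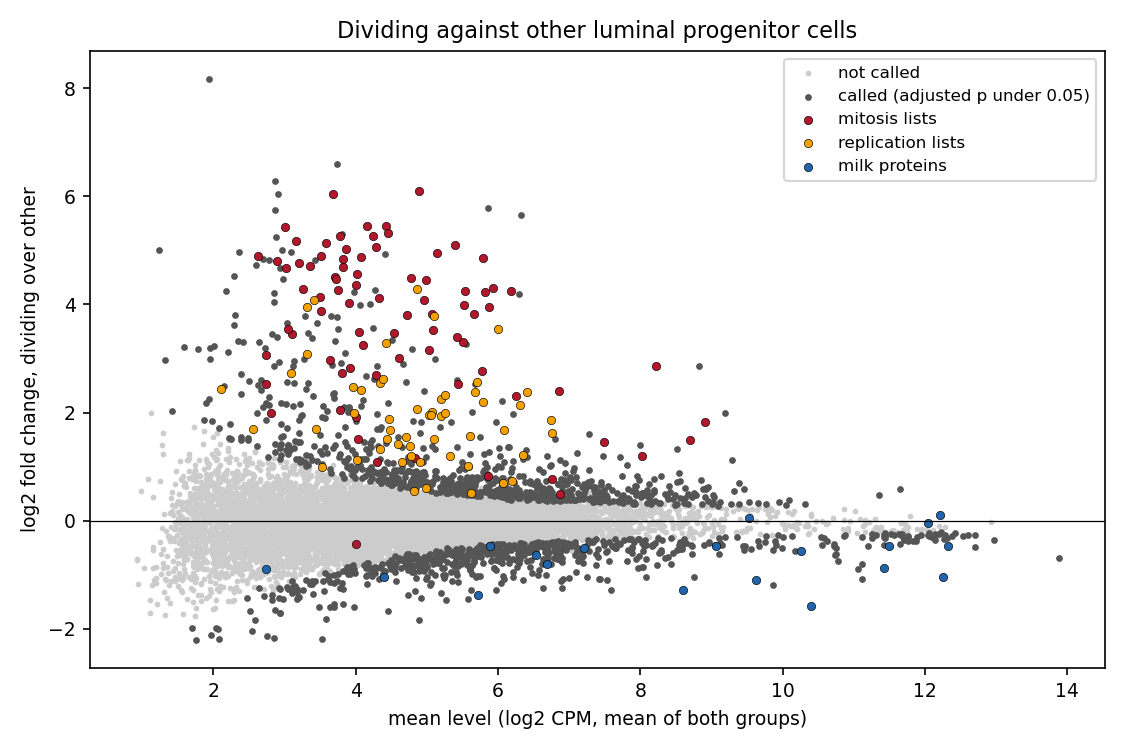
Fitted log2 fold change (dividing over other luminal progenitor cells) against mean level (log2 CPM) for every tested gene; dark points passed an adjusted p of 0.05, and coloured points mark 3 groups of gene lists. Mitosis genes reach a log2 fold change of 6.10 (Nusap1), replication genes lie mostly lower, and milk protein genes lie near or below 0.

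Most replication genes rose. All 36 genes of DNA synthesis and 17 of 18 tested genes of origin licensing (20 listed) were higher, with none lower and medians of 2.00 (licensing) and 1.78 (synthesis) on the log2 scale, against -0.03 over all genes. In the licensing list 3 genes had fewer than 30 UMIs over the other cells and could be called in 1 direction only. Of the 15 with 30 or more, a split chosen after the values were seen, 14 were higher (median log2 1.94). Mcm5, a subunit of the replicative helicase, stood at 109, 116 and 44.4 CPM in dividing cells and at 13.3, 21.2 and 9.40 in other cells. Every dividing value lay above every other value (log2 2.56 ± 0.42, adjusted p = 3.87e-09). Rrm2, the regulated subunit of ribonucleotide reductase, stood at 79.5, 56.7 and 28.9 CPM against 1.81, 5.54 and 1.48 (log2 4.28 ± 0.96, adjusted p = 1.06e-08). Uhrf1, which carries DNA methylation through replication, stood at 134, 158 and 62.2 against 7.54, 19.6 and 4.75 CPM (log2 3.55 ± 0.55, adjusted p = 1.77e-10). In all 3 genes library 3 was the lowest of the dividing groups. The sliding clamp Pcna, present in other cells at 61.2, 49.3 and 42.1 CPM, rose less, to 255, 144 and 99.2 (log2 1.61 ± 0.42, adjusted p = 9.22e-08). Tk1 (thymidine kinase), Clspn (a checkpoint mediator), Cdc45 and Mcm10 (helicase activation) and Dbf4 (partner of the Cdc7 kinase) rose by log2 3.78, 3.29, 4.09, 3.95 and 2.46. Orc1, which marks origins, had a wide spread (log2 2.44 ± 1.05).

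Of 18 repair genes 16 were abundant enough to test, of which 15 were higher and 0 lower (median log2 2.45). By the same split, 3 had fewer than 30 UMIs in other cells, and 12 of the remaining 13 were higher (median log2 2.31). Against depth-matched cells 8 could be tested, with 6 higher (median 1.58), and in thinned cells 9, with 5 higher (median 1.66). Exo1, an exonuclease of mismatch repair and DNA end resection, stood at 18.8, 14.4 and 7.40 CPM in dividing cells and at 1.61, 1.48 and 0.692 in other cells. The groups did not overlap (log2 3.39 ± 0.22, adjusted p = 1.80e-05).

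Genes of chromatin and chromosome condensation were higher in 27 of 30 cases, with 0 lower (median log2 1.43). By the same split, 1 had fewer than 30 UMIs in other cells, and 26 of the remaining 29 were higher (median log2 1.36). Hmgb2, a chromatin protein, stood at 894, 718 and 773 CPM against 116, 109 and 103, with a small spread (log2 2.86 ± 0.12, adjusted p = 2.11e-13). The histone variant H2afz, at 955, 944 and 906 CPM against 225, 253 and 226, behaved alike in each library (log2 1.99 ± 0.10, adjusted p = 2.09e-11). The condensin subunit Smc2 stood at 119, 77.8 and 64.4 against 20.1, 16.4 and 9.59 CPM (log2 2.53 ± 0.25, adjusted p = 1.71e-09). The replication-dependent histone Hist1h2ap rose from 3.11, 2.95 and 3.36 to 153, 129 and 188 CPM (log2 5.65 ± 0.19, adjusted p = 3.63e-14). Replication-dependent histones are near-identical copies, and their transcripts mostly lack a poly(A) tail, so the value of a single copy is uncertain.

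Mitotic genes had the highest medians of the lists. Of 32 tested kinases, cyclins and their regulators (33 listed) 31 were higher (median log2 3.85), and of 49 tested genes of the spindle, kinetochore and cytokinesis (50 listed) 48 were higher (median log2 4.08), with 0 lower in either list. Many are nearly absent from other cells, so they entered the test through the dividing cells, could be called in 1 direction only, and have folds that depend on the prior count: 7 and 18 of them had fewer than 30 UMIs over the other cells of the 3 libraries. Of those with 30 or more, a split chosen after the values were seen, 24 of 25 and 30 of 31 were higher (medians 3.07 and 3.39). Cdk1 stood at 149, 74.5 and 98.4 CPM in dividing cells and at 3.11, 4.43 and 3.56 in other cells (log2 4.86 ± 0.72, adjusted p = 1.56e-11). Ccnb1, its cyclin B1 partner, stood at 23.03, 35.6 and 51.8 CPM against 0.402, 1.66 and 0.989 (log2 5.26 ± 0.56, adjusted p = 2.46e-09). Both genes separated the groups in every library, with library 1 highest for Cdk1 and lowest for Ccnb1. Aurkb, the kinase of the chromosomal passenger complex (chr11:69045647-69051664, plus strand), stood at 33.5, 20.01 and 22.2 CPM against 0.301, 0.554 and 0.297 (log2 6.04 ± 0.58, adjusted p = 9.73e-09). Nusap1, a spindle microtubule protein (chr2:119618298-119651244, plus strand), stood at 85.8, 23.3 and 66.6 CPM against 1.00, 0.369 and 1.09 (log2 6.10 ± 0.51, adjusted p = 3.51e-11). In library 2 Nusap1 was the lowest in both groups, with 2 UMIs in other cells and the smallest log2 ratio, 4.90 against 5.91 and 5.47. Ube2c, the ubiquitin-conjugating enzyme of the anaphase-promoting complex, stood at 136, 83.4 and 194 CPM against 0.804, 8.68 and 13.4 with folds that differed widely between libraries (log2 4.25 ± 1.92, adjusted p = 2.33e-08). Cdc20, which activates that complex, rose by log2 4.22 ± 0.50, the kinesin Kif11 by 5.45 ± 1.18 and the spindle assembly factor Tpx2 by 5.09 ± 0.72. Tuba1b and Tubb5, tubulins that other cells carry at between 132 and 262 CPM, rose by log2 1.48 ± 0.56 and 1.83 ± 0.65.

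**Figure D3:**
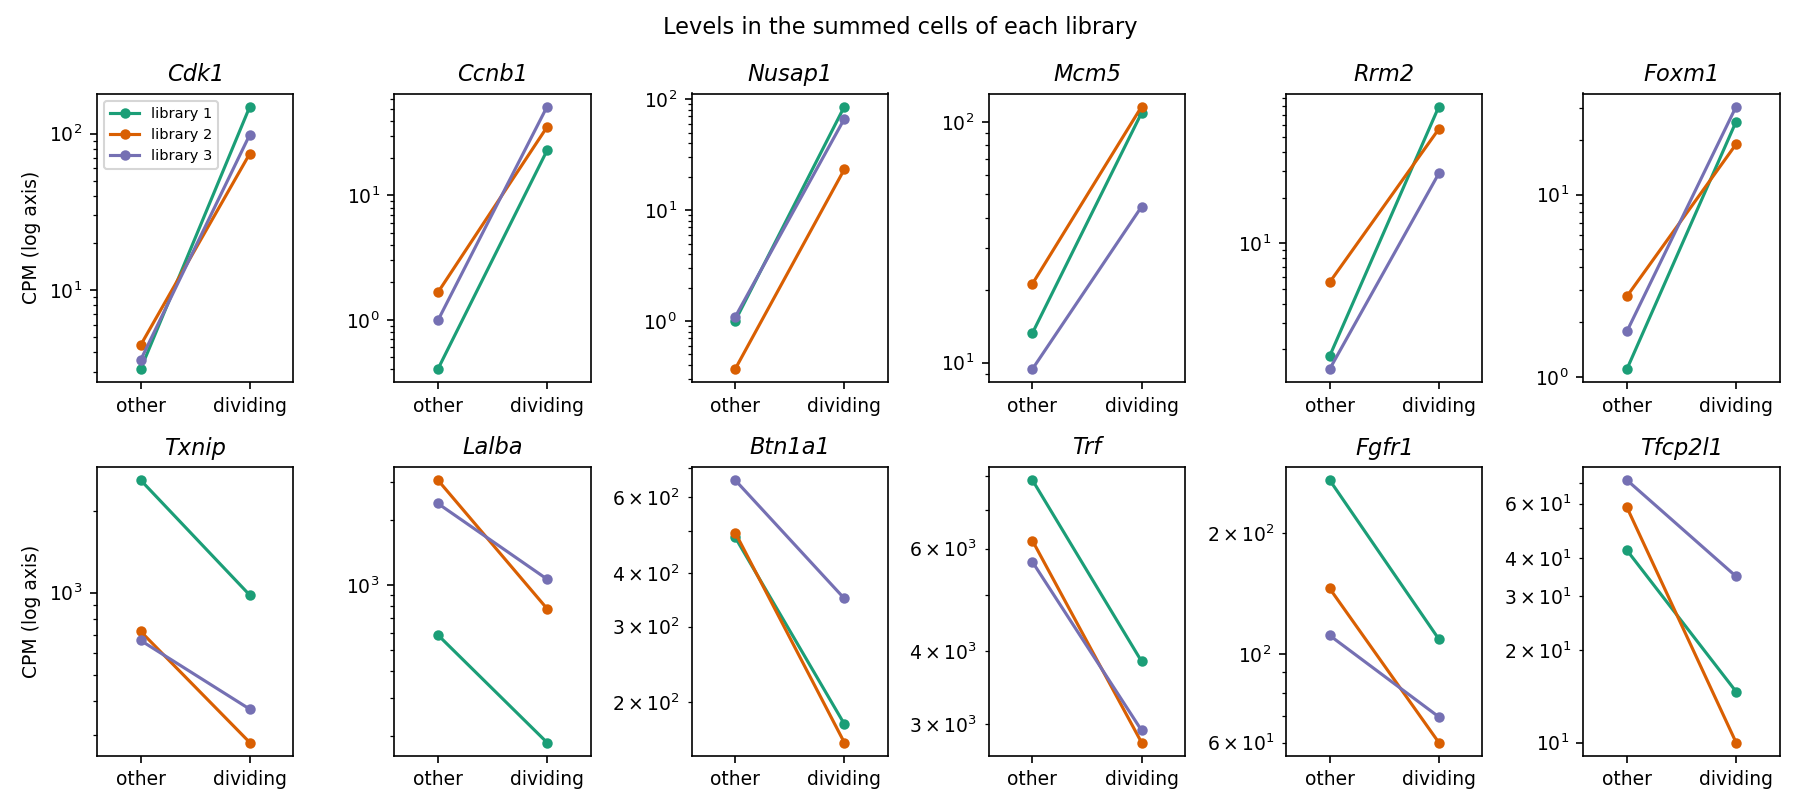
Levels (TMM-scaled CPM, log axes that differ between panels) of 12 genes in the summed other and dividing luminal progenitor cells, with 1 line per library. The upper genes rise in all 3 libraries and the lower genes fall in all 3, with Cdk1 going from between 3.11 and 4.43 to between 74.5 and 149 CPM.

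Factors that start the cycle changed unevenly. Of 20 tested, 11 were higher and 1 lower (median log2 0.76), and 5 of 17 were higher against depth-matched cells. Those that rose most were E2f8 (log2 4.98 ± 1.21) and E2f7 (4.73 ± 0.22), repressors in the E2F family, with Foxm1 (3.76 ± 0.78) and Mybl2 (3.55 ± 0.66), the activators of late cell cycle genes. E2f8 had 0, 7 and 4 UMIs in other cells and E2f7 had 4, 3 and 3. These 2 thus entered the test through the dividing cells and could be called in 1 direction only. Of the 18 factors with 30 or more UMIs in other cells, 9 were higher and 1 lower (median log2 0.55). Foxm1 stood at 25.1, 18.9 and 30.3 CPM against 1.11, 2.77 and 1.78 (adjusted p = 4.01e-07). E2f1, an activator, stood at 64.9, 52.2 and 19.2 against 5.02, 10.2 and 5.74 CPM (log2 2.56 ± 0.97, adjusted p = 3.42e-06). Of the D cyclins, which relay growth signals, Ccnd1 rose by a small amount and Ccnd3 did not pass. Ccnd1 stood at 580, 499 and 255 CPM against 423, 348 and 254 (log2 0.33 ± 0.28, adjusted p = 0.0495, and 0.19 against depth-matched cells), and Ccnd3 at 71.2, 52.2 and 63.6 against 95.9, 45.1 and 55.6 (adjusted p = 0.941). Myc did not pass, at 77.5, 57.8 and 42.9 CPM against 75.8, 48.9 and 44.5 (adjusted p = 0.824). The single gene that fell was Rb1, the retinoblastoma protein that holds E2F factors, at 83.7, 56.7 and 121 against 123, 126 and 172 CPM (log2 -0.71 ± 0.35, adjusted p = 0.00128), while its relative Rbl1 rose (log2 2.23 ± 0.42).

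Among 18 tested inhibitors and genes linked to quiescence, 3 were higher and 6 lower (median log2 -0.25). Txnip, an inhibitor of thioredoxin and of glucose uptake, stood at 980, 281 and 373 CPM in dividing cells and at 2596, 720 and 668 in other cells. It was lower in each library although the ranges of the groups overlapped (log2 -1.20 ± 0.31, adjusted p = 1.03e-07). Ypel3 stood at 62.8, 55.6 and 65.9 against 126, 98.6 and 114 CPM (log2 -0.86 ± 0.12, adjusted p = 0.000125). Btg2, an antiproliferative gene, and Klf9 fell by 0.53 and by 0.56 on the log2 scale. The inhibitors Cdkn2c and Cdkn2d were higher (log2 0.87 ± 0.21 and 1.13 ± 0.41), but not by DESeq2 (adjusted p = 0.0547 and 0.214), and Cdkn2d had 6, 8 and 23 UMIs in dividing cells. The 3 higher calls of this list became 0 with DESeq2 and 1 without library 3. Cdkn1a (p21) and Cdkn1b (p27) did not pass, at log2 0.31 and 0.28 (adjusted p = 0.313 and 0.239). Of 18 tested p53 targets and regulators 1 was higher, Trp53 itself (log2 0.57 ± 0.26), and 1 lower, Trp53inp1. Over all genes 8.25% were higher and 5.72% lower, so these counts are not read as a result about the list. Trp53inp1 did not pass by DESeq2 (adjusted p = 0.293) or by edgeR against matched cells (adjusted p = 0.0737). Trp53 did not pass by edgeR in thinned cells (adjusted p = 0.146).

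**Figure D4:**
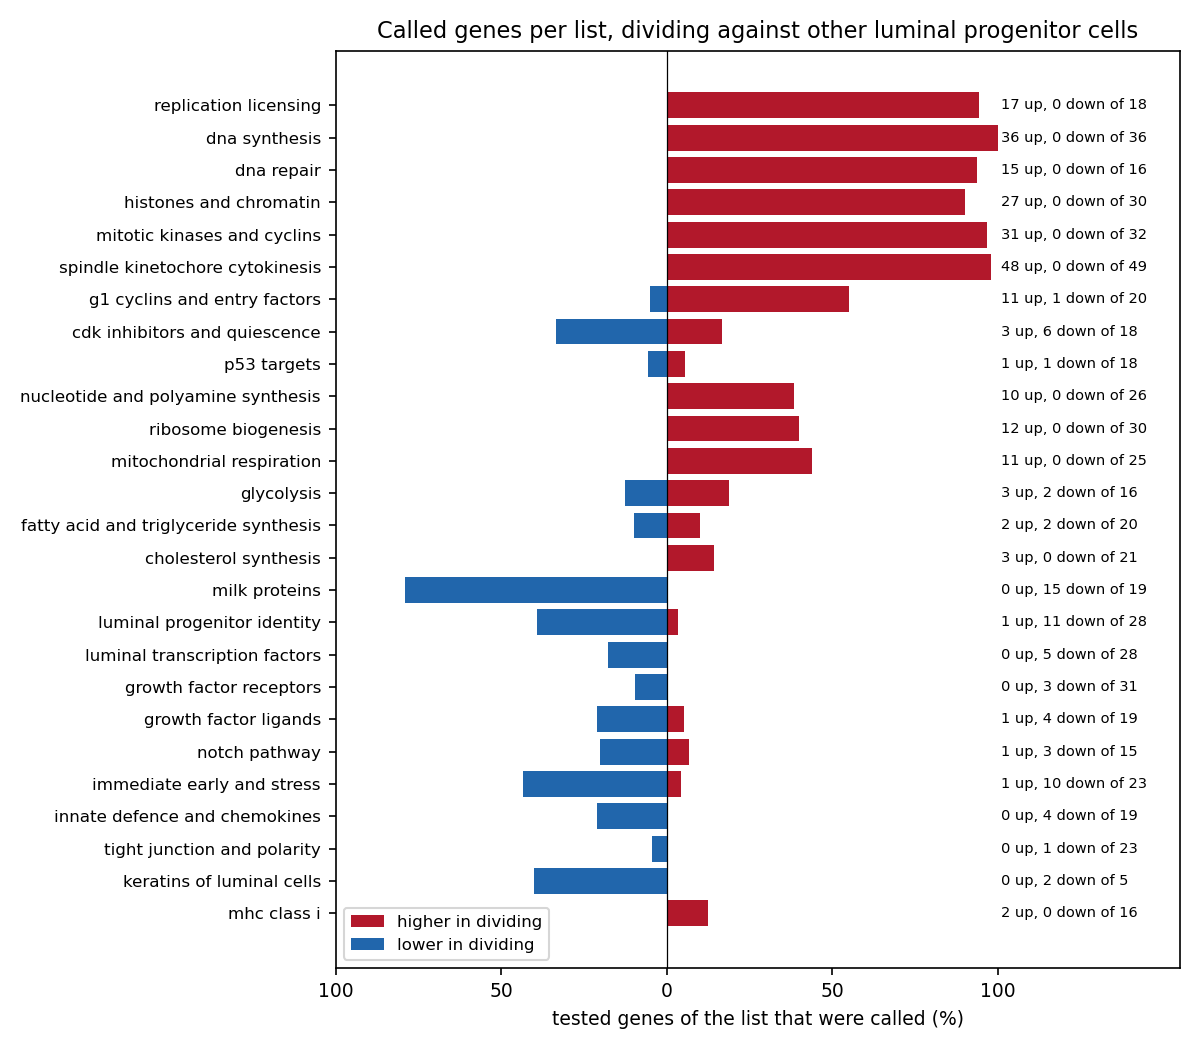
Share of the tested genes of each list (%) that were higher (red, to the right) or lower (blue, to the left) in dividing luminal progenitor cells at an adjusted p of 0.05, with the counts beside. DNA synthesis reaches 36 of 36 higher and milk proteins 15 of 19 lower, beside 8.25% higher and 5.72% lower over all genes.

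Some growth and respiration genes rose by small amounts. Ribosome biogenesis had 12 of 30 tested genes higher and 0 lower (median log2 0.36), mitochondrial respiration 11 of 25 (median 0.28) and nucleotide and polyamine synthesis 10 of 26 (median 0.46). Against depth-matched other cells the counts were 9 of 30, 6 of 25 and 2 of 25, with medians of 0.23, 0.24 and 0.41. Leaving out library 2 gave 8 of 30, 3 of 25 and 5 of 26, and respiration had 6 of 25 without library 3 and nucleotide synthesis 6 of 26 without library 1. Ran, the small GTPase of nuclear transport and spindle assembly, rose the most in the ribosome list, from 208, 254 and 166 to 582, 605 and 388 CPM (log2 1.32 ± 0.14, adjusted p = 1.04e-08). Cycs (cytochrome c) stood at 201, 247 and 164 CPM against 78.9, 142 and 97.4 (log2 0.93 ± 0.33, adjusted p = 1.94e-05). Nme1, a nucleoside diphosphate kinase, rose by log2 0.83 ± 0.19 and by 0.60 against matched cells. Of 16 tested glycolysis genes 3 were higher (Tpi1, Gapdh and Pgam1) and 2 lower, the aldolases Aldoa (log2 -0.71 ± 0.08) and Aldoc (log2 -0.83 ± 0.20).

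Milk genes were lower. Csn3 is part of the rule and was left out; of 19 other tested milk protein and milk fat globule genes 15 were lower and 0 higher (median log2 -0.63). Deeper cells pass the Csn3-dependent minimum at a lower CPM, so the depth-matched fit matters here, and it also called 15 lower, of 18 tested (median log2 -0.66). Csn3 itself, scaled to total UMIs without TMM, was 4703, 2626 and 5158 CPM in dividing cells. It was 6019, 4461 and 5453 in other cells and 5504, 4035 and 5357 in matched cells. Trf, the iron carrier transferrin, stood at 3843, 2789 and 2926 CPM against 7864, 6191 and 5692, without overlap (log2 -1.05 ± 0.10, adjusted p = 3.66e-09; matched log2 -0.91). Lalba, the alpha-lactalbumin of lactose synthesis (chr15:98480400-98482721, minus strand), stood at 186, 777 and 1064 against 587, 3062 and 2386 CPM (log2 -1.59 ± 0.41, adjusted p = 1.14e-08; matched log2 -1.47). Lalba differed between libraries as much as between the groups, but fell within each. Btn1a1, the butyrophilin of the fat globule membrane (chr13:23456992-23465901, minus strand), stood at 178, 161 and 349 against 484, 496 and 657 CPM (log2 -1.29 ± 0.37, adjusted p = 2.93e-07). Mfge8 stood at 2843, 1218 and 1949 against 4125, 2847 and 3531 CPM (log2 -0.87 ± 0.34, adjusted p = 2.84e-06).

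The caseins did not follow as closely. Csn2 (beta-casein) stood at 50.2, 10016 and 4490 CPM in dividing cells and 170.0, 9963 and 6194 in other cells, lower in libraries 1 and 3 and level in library 2 (log2 -0.47 ± 0.91, adjusted p = 0.0480). Csn1s2a was lower in each library (log2 -0.47 ± 0.23, adjusted p = 0.00243). Csn1s1 did not pass, at 239, 7197 and 4915 against 229, 6720 and 5959 CPM (log2 -0.05 ± 0.21, adjusted p = 0.768), but was lower against matched cells (log2 -0.29, adjusted p = 0.00473). The casein level was far lower in library 1 than in the others in both groups. Wfdc18 and Muc15 did not pass (log2 0.11 and 0.05). Thinned cells gave 9 milk genes lower of 19, a fit without library 2 gave 10 of 20, and without the library block 1 of 19 was called.

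Other genes of luminal progenitor identity were lower in 11 of 28 tested cases and higher in 1, and 9 and 1 of 25 against matched cells. Lcn2, the iron-scavenging lipocalin, stood at 2451, 696 and 1411 CPM against 4461, 1722 and 2015 (log2 -0.89 ± 0.40, adjusted p = 6.99e-06). Hey1, a Notch target, Itgb3 (the integrin CD61) and Scara5 fell by 0.97, by 1.34 and by 1.28 on the log2 scale, and Hey1 did not pass against matched cells (log2 -0.50, adjusted p = 0.0756). The lineage factors Ehf and Sox10 did not pass, at log2 0.04 and -0.30 (adjusted p = 0.837 and 0.193). Car2, a carbonic anhydrase, was the single member that rose, from 38.2, 103 and 93.7 to 60.7, 251 and 189 CPM (log2 1.07 ± 0.31, adjusted p = 4.20e-06). Among 28 tested luminal transcription factors 5 were lower and 0 higher. Tfcp2l1, a grainyhead-family factor, stood at 14.7, 10.0 and 34.8 against 42.3, 58.3 and 71.6 CPM (log2 -1.47 ± 0.75, adjusted p = 8.53e-05), and Foxi1, Nfib, Sox9 and Id1 were the others; Foxi1 and Id1 did not pass against matched cells (adjusted p = 0.0993 and 0.110). The luminal keratins Krt7 and Krt18 fell by 0.55 and by 0.50, and Krt8, Krt19 and Krt23 did not pass.

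Of 31 tested receptors for growth signals, 3 fell and 0 rose, and 2 of 26 fell against matched cells, shares near those over all genes. Fgfr1 stood at 109, 60.02 and 69.6 CPM in dividing cells and at 272, 146 and 111 in other cells (log2 -1.06 ± 0.36, adjusted p = 1.81e-05; matched log2 -0.87). Met, the hepatocyte growth factor receptor, and Igf1r fell by 0.69 and by 0.44, and Igf1r did not pass against matched cells (adjusted p = 0.702). Erbb2, Erbb3 and Egfr did not pass. Of 19 tested ligands 4 were lower (Inhbb, Tgfb1, Tgfb3 and Wnt5b) and 1 higher, beside 5.72% lower and 8.25% higher over all genes. With DESeq2 the list had 3 lower and 0 higher. Tgfb1 had 4, 8 and 9 UMIs in dividing cells and did not pass by DESeq2 (adjusted p = 0.288). Inhbb, an activin subunit, stood at 170, 64.5 and 107 against 423, 178 and 170 CPM (log2 -1.11 ± 0.42, adjusted p = 9.35e-06). Csf3, the granulocyte colony factor, was the one that rose, with a wide spread, at 56.5, 23.3 and 57.7 against 3.62, 10.2 and 28.5 CPM (log2 1.62 ± 1.58, adjusted p = 0.00285). It did not pass by DESeq2 (adjusted p = 0.184).

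Immediate-early and stress genes, which tissue digestion is known to induce, were lower in 10 of 23 tested cases and higher in 1 (median log2 -0.14), with 15 lower and 1 higher without library 1 (median log2 -0.32) and 4 lower and 0 higher without library 2. Jun stood at 2162, 2274 and 2510 CPM against 2737, 3324 and 3470 (log2 -0.45 ± 0.10, adjusted p = 0.000350), and Fos fell by 0.39 ± 0.11. The chaperone Hsp90aa1 was higher (log2 0.38 ± 0.13, adjusted p = 0.00547). Library 1 stood apart for heat-shock genes, with Hspa1a at 1863 and 2010 CPM in dividing and other cells against at most 319 in the other libraries; the fall of the list was as large without it, as given above.

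Markers of other cells were summed in each group, as CPM of total UMIs without TMM. Few were abundant enough to test: 6 of 7 fibroblast, 6 of 10 hormone-responsive, 2 of 7 endothelial, 2 of 6 pericyte and 1 of 8 immune markers, of which 0 passed. Over 10 further basal markers the summed level lay between 173 and 326 CPM in dividing cells and between 197 and 334 in other cells, and 1 of 10 was called (Lmod1, lower). Further hormone-responsive markers summed to between 29.1 and 113 against between 38.0 and 131 CPM, fibroblast markers to between 20.2 and 49.96 against between 26.5 and 51.7, immune markers to between 6.72 and 30.6 against between 3.29 and 51.1, endothelial markers to between 8.96 and 16.4 against between 9.45 and 13.3, and pericyte markers to between 61.8 and 89.6 against between 82.7 and 92.6. Within libraries, the fibroblast and pericyte sums were lower in dividing cells in all 3, a difference whose part in the results was not tested. At 0 in the dividing cells of every library were Ptprc, Cd3e and Fcer1g among 8 immune markers, Kcnj8, Abcc9, Cspg4 and Pdgfrb among 6 pericyte markers, Tnfsf11 and Sult1e1 among 10 hormone-responsive markers, and Emcn among 7 endothelial markers. Kcnj8 and Sult1e1 were also at 0 in the other cells of every library, and the rest except Pdgfrb in some library. The dividing sums held far fewer UMIs, so these zeros are not read as a trait of the dividing cells.

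By fold alone, the 10 genes that rose most, at 10 CPM or more, were Esco2, Depdc1a, Nusap1, Mxd3, Aurkb, Hist1h2ak, Fam64a, Hist1h2ap, Hmmr and Kif11. Esco2, which joins sister chromatids, stood at 50.2, 8.89 and 19.98 CPM against 0.502, 0.369 and 0 (log2 6.59 ± 1.23, adjusted p = 3.17e-08). Its fold rests on 5, 2 and 0 UMIs in other cells and depends on the prior count. The 10 that fell most were Cpsf4l, Ablim1, Lrrc36, Papln, Amtn, Ticam1, Itgb6, Saa1, Misp and Rai14. These were scarce: Cpsf4l had 2, 3 and 6 UMIs in dividing cells and stood at 4.19, 3.33 and 4.44 CPM against 24.3, 13.5 and 19.5 (log2 -2.18 ± 0.28, adjusted p = 0.000163). Others were less steady, with Ablim1 at 4, 1 and 1 UMIs (SD 1.18) and Misp at 0, 5 and 5 (SD 2.21). Ablim1, Misp and Lrrc36 (0, 2 and 6 UMIs in dividing cells) entered the test through the other cells and could be called in 1 direction only. By DESeq2, Ablim1, Ticam1, Itgb6 and Misp did not pass (adjusted p = 0.0739, 0.164, 0.103 and 0.128). Against depth-matched cells only Papln, Saa1 and Rai14 could be tested, and each was lower there too.

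Dividing basal cells, chosen by the mirrored rule (304 cells, with 22, 167 and 115 per library), were compared with other basal cells to see what differs in luminal progenitors. In basal cells 880 of 10373 tested genes passed (8.48%), 477 higher (4.60%) and 403 lower (3.89%). The difference of the effects, tested as an interaction over 11502 genes, passed for 0 genes (0.00%) with edgeR, with 822 at an unadjusted p under 0.05. DESeq2 called 3 (Arhgef39, Crispld2 and Nop58), and edgeR without library 1 called 7 (Clic4, Fcgbp, Krt16, Mfge8, Neat1, Pde12 and Slpi), all named after their values were seen. No gene is therefore called particular to division in luminal progenitors. For example, Cdk1 rose by log2 4.86 in luminal progenitor and 4.69 in basal cells, and Nusap1 by 6.10 and 5.47. Milk genes went apart in value, with 7 of 16 tested higher and 0 lower in dividing basal cells (median log2 0.59). Csn2 differed most clearly, at log2 -0.47 and 1.23, and its interaction did not pass (unadjusted p = 0.00258, adjusted p = 0.522). With likely doublets removed, dividing basal cells went from 304 to 262 and all basal cells from 10939 to 9969. The basal and interaction fits were not repeated without them, so the part of doublets in the milk values was not tested. Ccnd1 was log2 0.33 and 1.29 (interaction adjusted p = 0.584), and Cdkn1a 0.31 and -0.85 (0.483). Immediate-early and stress genes were lower in 17 of 23 in dividing basal cells.

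**Figure D5:**
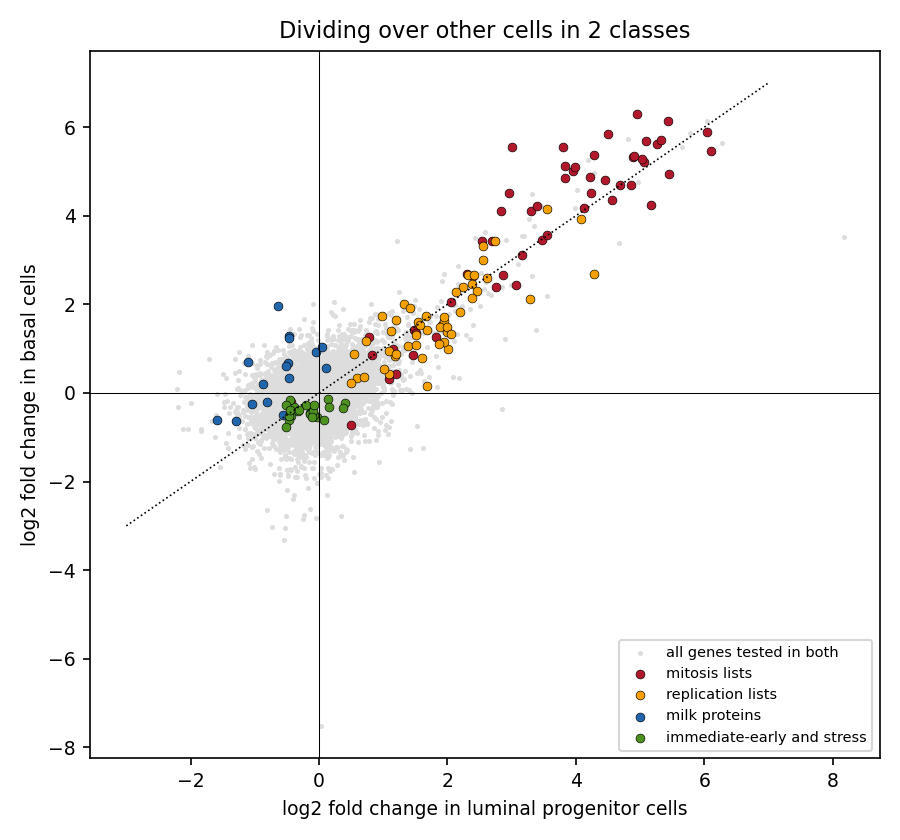
Fitted log2 fold change of dividing over other cells in luminal progenitor cells (horizontal) and basal cells (vertical) for genes tested in both, with gene lists in colour and the dotted line marking equal change. Mitosis and replication genes lie along the line, and milk genes lie left of 0 or near it with several above 0 in basal cells; the interaction passed for 0 of 11502 genes.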

How the data were processed

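The authors deposited 1 table of raw UMI counts per library, made, per the submitters' processing notes, with Cell Ranger 2.1.0 on mm10. Their annotation and cell calling were not given in the sources used here. All tables were used unchanged (19050 genes, 26845 barcodes, 0 sample columns unused). Cells and classes followed the rules given in the report. The members, gene lists (32) and tests were chosen with earlier results of these data known.

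Counts were summed per library and group (6 sums; 12 for the interaction). The 15 genes of the rule counted toward the totals but got no test. The test was edgeR's quasi-likelihood test (version 4.0.16, in R 4.3.3) with TMM, filterByExpr, the library as a block and Benjamini-Hochberg adjustment; DESeq2 1.42.0 was an alternative. Ratios per library used a prior count of 2. The tests were checked on simulated data. Replicate pairs differed by more than sampling noise (chi-square per degree of freedom 5.27 to 90.5).

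The library pairs the sums by construction, as both groups come from 1 suspension: deviations from group means correlated at 0.834, 0.759 and 0.797 within libraries and between -0.675 and 0.131 across them (2677 genes, which are not replicates).

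Named genes were the 10 called genes with the largest and the 10 with the smallest fold at 10 CPM or more, up to 4 called genes per list, all with 1 sign in the 3 libraries. Others in the text, such as Cdk1, Pcna and genes that did not pass, were added after their values were seen, for their known roles. Some genes that the rule names are not reported here. Doublets were scored with Scrublet in scanpy 1.11.5 (with its expected rate scaled to the number of cells) and removed only as an alternative. Gene positions are from GENCODE for GRCm38, which mm10 names, and promoters from RefSeq.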

Additional observations from a re-analysis of the deposited data

How the results depend on the processing

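No gene called in a main run was called in the opposite direction in an alternative run. A change of sign without a call was looked for only in the 105 named genes. The 1512 called genes (893 higher, 619 lower) became 688 (489, 199) with DESeq2, 852 (489, 363) against depth-matched other cells, 806 (468, 338) in thinned cells and 502 (382, 120) with a 2-fold minimum. With total counts in place of TMM, 399 were lower, and with no filter on low counts 1636 were called, with 840 lower. Leaving out 1 library gave 892 to 1372 called, 579 to 813 higher and 313 to 613 lower, and the low ends are the fits without library 2. Without the library as replicate block, 216 remained significant (209 higher, 7 lower), which removes the pairing that the shared suspension gives. The interaction, at 0 called, gave 3 with DESeq2, 63 with no filter, and 0 to 7 with 1 library left out; the fits without the block, against depth-matched cells and with a 2-fold minimum gave 0. The mean share of dividing cells went from 6.92% to 2.78% at a threshold of 2 UMIs. Over 105 named genes, 1325 comparisons with alternatives kept direction and call and 223 kept direction but lost the call, 71 of these without the block. Alternatives on doublets, Mki67 or Top2a alone, the class minimum and mitochondrial UMIs kept the 3 counts within 1.5 times. Depth limits calls of scarce genes, with 76 dividing cells in library 1.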

Other observations

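Cholesterol synthesis genes leaned higher by small amounts in dividing luminal progenitor cells, with few called, and fatty acid genes went both ways. The cholesterol list had a median log2 of 0.38, with 17 of 21 above 0. Its median was 0.16 against depth-matched cells and 0.23 without library 2. Of 21 tested cholesterol synthesis genes 3 were higher and 0 lower (among them Idi1 at log2 0.91 ± 0.47 and Fdps at 0.78 ± 0.39, SD, n = 3), and without library 2 none was called. Of 20 tested fatty acid and triglyceride genes 2 were higher (Scd2 and Fabp5) and 2 lower (Scd1 and Me1), and without library 2 the counts were 0 and 1. The desaturases differed in sign, with Scd2 at 27.2, 114.5 and 96.2 CPM against 14.7, 50.04 and 70.1 (log2 0.80 ± 0.37) and Scd1 at 48.1, 230.1 and 283 against 107.5, 259.6 and 440.3 (log2 -0.54 ± 0.49).

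Of 16 tested genes of antigen presentation by MHC class I, Psmb9, a subunit of the immunoproteasome (log2 0.73 ± 0.23, edgeR adjusted p = 0.000622), and H2-K1 (0.31 ± 0.19) were higher and 0 lower. Over all genes 8.25% were higher and 5.72% lower. H2-K1 did not pass against matched cells (log2 0.17, edgeR adjusted p = 0.173) or by DESeq2 (adjusted p = 0.201). Of 19 tested innate defence genes Ltf, Lcn2, Saa1 and Saa2 were lower and 0 higher (median log2 -0.13), but without library 3 the list had 2 lower and 4 higher (median 0.09), and Saa1 did not pass (log2 -0.83, edgeR adjusted p = 0.212). In the Notch list Hes1 stood at 576, 627 and 591 CPM against 838, 813 and 820 (log2 -0.46 ± 0.08, edgeR adjusted p = 0.00131), Hey1 and Maml2 were lower as well, and Nrarp was higher (log2 0.87 ± 0.29); against matched cells 1 of 13 was lower and 0 higher. Of 23 tight junction and polarity genes 1 was lower (Pard3), a share near the 5.72% lower over all genes. Pard3 did not pass by DESeq2 (adjusted p = 0.322), and the list had 0 lower without library 2 or without library 3.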
